A study of Homo sapiens with 12 samples.

Results

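The 42 genes described here encode the lysosome's acid hydrolases and the proteins that activate them, a set of proteins of the lysosomal membrane, and the MiT/TFE transcription factors, out of 62069 genes in the count table. They were chosen by name, with earlier results of these data known. They include GLB1, the gene of the beta-galactosidase whose activity is stained in senescent cells. All 42 were found in the table, and all 42 passed the filter on low counts that left 15284 genes to test. The study counted polyadenylated RNA reads per gene in IMR90 ER:RAS cells, human fetal lung fibroblasts that carry a fusion of RAS with the oestrogen receptor, so that 4-hydroxytamoxifen (4OHT) switches RAS on and brings on oncogene-induced senescence. It asked what induction changes, and what changes when XPO7 is lowered by a short hairpin RNA (shRNA) in induced cells. XPO7 is an exportin that the study describes as moving proteins both out of the nucleus and into it. There were 12 libraries in 4 groups of 3. The non-induced group had the vector and no 4OHT, the induced group had the vector and 4OHT at 100 nM, and the shXPO7_3 and shXPO7_5 groups had 4OHT at 100 nM and 1 of 2 shRNAs against XPO7. These are the names in the labels, and the study also writes them as vector, vector/4OHT and the shRNA's name followed by 4OHT. Every library came from cells at passage 13 and is labelled day 5, the non-induced ones as well. All 4 groups carry the ER:RAS fusion, all come from 1 fibroblast strain, and whether the 3 libraries of a group were grown apart is stated nowhere in the sources, so that p-values measure the spread between libraries, which may be technical.

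The lysosome is an acidic compartment in which hydrolases break down proteins, glycans, lipids and nucleic acids that reach it by endocytosis or autophagy. Most of its soluble enzymes are tagged with mannose 6-phosphate in the Golgi and carried on by receptors, and a proton pump, the V-ATPase, keeps the inside acid. Loss of 1 enzyme leaves its substrate undigested and gives a storage disease, and several of the genes below are known from such diseases. TFEB, TFE3 and MITF bind a motif with the core CACGTG upstream of many lysosomal genes, and mTORC1 on the lysosomal surface holds them in the cytoplasm. In senescent cells the lysosomal compartment is known to enlarge, and the beta-galactosidase activity that can be stained at mildly acid pH, the most used mark of senescence, comes from the GLB1 enzyme. That stain reads enzyme activity, whereas the values here are RNA levels.

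The libraries held 28534141 to 60397769 counts each. Levels are given as CPM, counts per 1000000 counted reads, after trimmed-mean scaling of library sizes, in the order of the replicate letters T, A and C for the non-induced group and T, A and B for the others. Differences are log2 fold changes with their standard error (SE) from edgeR's quasi-likelihood test over all 12 libraries, and called means an adjusted p under 0.05 (Benjamini-Hochberg, all 15284 genes). Genes known to change with senescence and RAS separated the libraries as labelled: CDKN1A, the p21 cell cycle inhibitor, went from 497 to 1137 CPM, MKI67, a proliferation marker, from 270.2 to 27.5, LMNB1, lost in senescence, from 78.0 to 9.25, IL6, a secreted cytokine, from 2.59 to 8.79 and HRAS from 986 to 1930.0, each called by edgeR. Because all groups carry a RAS fusion, counts per gene cannot tell whether any of the HRAS reads came from it. All 10 fibroblast markers were expressed in every group, and 6 were called lower and 1 higher on induction. Of 10 leukocyte and macrophage markers none reached a mean of 1 CPM in any group, with PTPRC at 0.0373 and 0.0158 CPM and MRC1 at 0 in every group. Of 6 endothelial markers PECAM1 and CDH5 were at 0 in every library, while the list summed to 14.65 to 15.05 CPM in the non-induced and 9.46 to 10.2 CPM in the induced libraries, most of it TEK (12.4 and 6.31 CPM), the 1 of 3 tested that was called, lower. The epithelial list summed to 6.34 to 6.94 CPM in the non-induced libraries and to 1.8 to 2.23 CPM in the induced ones, most of it CLDN4. In bulk RNA fewer cells of a type and less RNA per cell cannot be told apart.

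On induction the lysosomal genes did not move as a block. By edgeR 11 of 42 rose (26.2%) and 14 fell (33.3%), with 17 not called, where 24.8% of all tested genes were called higher and 26.1% lower. The median log2 fold change was -0.049 over the 42 genes and -0.0068 over all genes tested. The rises were the larger changes: 4 genes rose by 1 or more on the log2 scale, CTSS, IDS, CTSB and GLA, and none fell by that much, FUCA1 coming nearest at -0.997. In each of the 25 called genes every library of one group lay above every library of the other, and the same held for 6 genes that were not called, GLB1, MITF and CTSZ (higher) and IDUA, CTSA and ARSB (lower). The share of all tested genes that separate in this way was not computed, so these counts are no trait of the lysosomal genes. Of all tested genes 57.1% had an unadjusted p under 0.05 by edgeR. A correction for the GC content and length of each gene moved the split to 16 higher and 13 lower, and that of all tested genes to 34.5% higher and 28.7% lower.

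**Figure D1:**
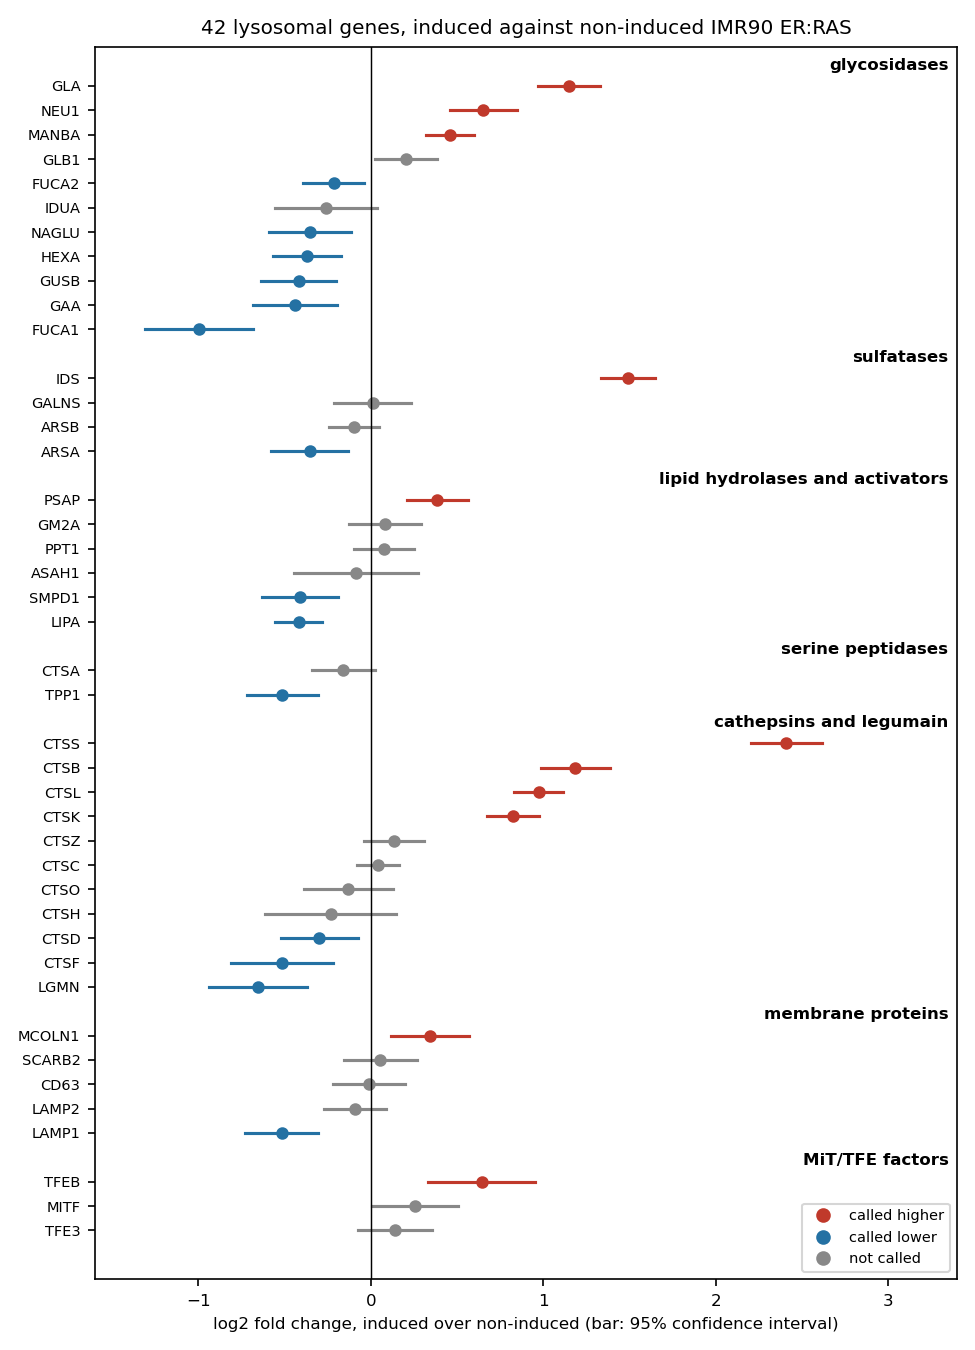
Log2 fold change of induced over non-induced libraries (x axis) for each of the 42 lysosomal genes (y axis, by role), with 95% confidence intervals as bars, 3 libraries a group. Red points were called higher, blue lower and grey not called. CTSS stands farthest to the right at 2.41 and FUCA1 farthest to the left at -0.997, and GLB1 lies just above 0 at 0.20.

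GLB1 (ENSG00000170266, chr3:32996608-33097230 in GRCh38, minus strand) encodes lysosomal beta-galactosidase, which removes terminal galactose from gangliosides and keratan sulfate. It stood at 101, 93.8 and 86.5 CPM in the non-induced libraries and at 108, 105 and 112 CPM in the induced ones. All 3 induced libraries were above all 3 non-induced ones, with little room between the nearest libraries, and the means were 93.9 ± 7.45 and 108 ± 3.402 CPM (SD, n = 3). The log2 fold change was 0.20 (SE 0.081, 95% confidence interval 0.026 to 0.38), and edgeR's adjusted p of 0.0540 did not pass the threshold. Of 14 other settings 3 called it: a fit of only those 2 groups (adjusted p = 0.0396), the GC and length correction (log2 fold change 0.27, adjusted p = 0.000119) and leaving out the non-induced library T (adjusted p = 0.0268). Both proteins that hold GLB1 in a complex were measured as well, CTSA, which protects it, and NEU1, a sialidase, and NEU1 alone was called. In the knockdown groups GLB1 was at 113, 102 and 102 CPM with shXPO7_3 and at 122, 107 and 124 CPM with shXPO7_5, and both ranges overlapped that of the induced libraries.

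Among the 11 glycosidases, which take single sugars off glycan chains, 3 rose, 6 fell and 2, GLB1 and IDUA, were not called. GLA, the alpha-galactosidase that clears globotriaosylceramide and is lacking in Fabry disease, went from 40.1, 36.8 and 33.7 CPM to 78.2, 81.6 and 85.2 CPM. The groups stood far apart, and the log2 fold change was 1.15 (SE 0.083, edgeR adjusted p = 2.22e-07), a ratio of means of 2.22. NEU1, which removes sialic acid, was at 72.9, 65.7 and 61.7 CPM before and 103, 104 and 108 CPM after induction, and rose by 0.65 (SE 0.089, adjusted p = 6.14e-05). MANBA, the beta-mannosidase, took 47.0, 47.4 and 47.4 CPM before and 66.8, 62.8 and 65.2 CPM after induction, a rise of 0.46 (SE 0.064, adjusted p = 7.20e-05). For none of these 3 did an induced library reach down to the non-induced range. FUCA1, the lysosomal alpha-fucosidase, moved the other way, from 8.06, 6.51 and 6.23 CPM to 3.50, 3.23 and 3.65 CPM with no overlap, with a log2 fold change of -0.997 (SE 0.14, adjusted p = 9.98e-05). Its relative FUCA2, which is also secreted, had a log2 fold change of -0.21 (adjusted p = 0.0441). That call was lost in 8 of 14 settings, among them leaving out the non-induced library T or A or the induced library T or A (adjusted p = 0.168, 0.0656, 0.129 and 0.146). GAA, which digests glycogen and is lacking in Pompe disease, fell (-0.44, adjusted p = 0.00571), as did GUSB, the beta-glucuronidase (-0.42, 0.00393), and HEXA, the alpha subunit of the hexosaminidase that is lacking in Tay-Sachs disease (-0.37, 0.00471). NAGLU, which acts on heparan sulfate, fell as well (-0.35, adjusted p = 0.0167), and lost its call without the non-induced library T (adjusted p = 0.0619) or the induced library T (0.0582) or A (0.0536). IDUA, the iduronidase lacking in Hurler syndrome, was at 7.97, 8.26 and 7.54 CPM before and 7.41, 6.66 and 5.81 CPM after induction, lower in all 3 induced libraries, with a log2 fold change of -0.26 (adjusted p = 0.128).

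The 4 sulfatases, which remove sulfate from glycosaminoglycans and sulfolipids, went in both directions. IDS, the iduronate 2-sulfatase lacking in Hunter syndrome, was at 76.2, 67.0 and 70.8 CPM in the non-induced libraries and at 208, 196 and 198 CPM in the induced ones. No other glycan-degrading gene of the 42 changed as much, the ratio of means being 2.81 and the log2 fold change 1.49 (SE 0.071, edgeR adjusted p = 4.85e-09). IDUA, which acts on the same glycosaminoglycans in the next step, was lower in all 3 induced libraries and not called. ARSA, which desulfates sulfatide, fell from 21.0, 20.9 and 18.2 CPM to 16.6, 15.4 and 14.9 CPM, a log2 fold change of -0.36 (SE 0.10, adjusted p = 0.0121) with no overlap. ARSB and GALNS, which act on dermatan and keratan sulfate, were not called: ARSB was at 97.3, 87.6 and 86.9 CPM before and 85.3, 83.0 and 85.8 CPM after induction (-0.10, adjusted p = 0.247). GALNS was at 58.5, 54.5 and 45.5 CPM before and 53.3, 51.0 and 55.1 CPM after induction, with overlapping groups and a log2 fold change of 0.0097 (95% interval -0.21 to 0.23). GALNS overlaps TRAPPC2L on the other strand, which had 18997 counts against 25824 for GALNS, and whether counting used strand is not given in the sources used here. CTSA (with PLTP), LIPA (with IFIT genes) and IDUA (with SLC26A1) overlap other genes in the same way.

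Of the 6 lipid hydrolases and activators PSAP rose, LIPA and SMPD1 fell and ASAH1, GM2A and PPT1 were not called. PSAP, the precursor of the saposins that present sphingolipids to their enzymes, went from 1043, 956 and 890.1 CPM to 1258, 1231 and 1283 CPM, a log2 fold change of 0.39 (SE 0.082, edgeR adjusted p = 0.00177). Its groups did not overlap, and per kilobase of exon it was the second most abundant of the 42 genes in both groups. LIPA, the acid lipase that frees cholesterol from its esters, fell from 97.7, 95.1 and 92.6 CPM to 71.3, 69.8 and 72.4 CPM (-0.42, SE 0.063, adjusted p = 0.000132). SMPD1, the acid sphingomyelinase, fell from 126, 118 and 105 CPM to 86.8, 86.9 and 88.6 CPM (-0.41, SE 0.10, adjusted p = 0.00456), again with no overlap. GM2A, the activator that lifts GM2 ganglioside to hexosaminidase, was at 80.0, 70.3 and 70.4 CPM before and 75.2, 78.5 and 79.6 CPM after induction (0.081, 95% interval -0.13 to 0.29). PPT1, which removes palmitate from proteins, was at 76.3, 73.7 and 73.8 CPM before and 77.9, 76.2 and 81.7 CPM after induction (0.075, 95% interval -0.10 to 0.25). Both of these overlapped between the groups, as did ASAH1, the acid ceramidase (-0.087, 95% interval -0.45 to 0.27). PPT1 lies across from CAP1 on the other strand, which had 473302 counts against its 36647.

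The peptidases held the largest single change, that of CTSS. Of the 2 serine peptidases, TPP1, a tripeptidyl peptidase, fell from 234, 211 and 206 CPM to 158, 146 and 152 CPM (-0.51, SE 0.094, edgeR adjusted p = 0.000640), with no overlap. CTSA was lower in each induced library too, at 366, 328 and 308 CPM before and 299.6, 293 and 304 CPM after induction, but was not called (-0.16, adjusted p = 0.131). Of the 11 genes for the other cathepsins and legumain, 4 rose, 3 fell and 4 were not called. The 4 that rose, CTSS, CTSB, CTSL and CTSK, are cysteine cathepsins of the papain family, which cut within protein chains and, outside the cell, can cut matrix proteins. The family is not limited to them: CTSF, which fell, and CTSC, CTSH, CTSO and CTSZ, which were not called, belong to it as well. CTSS (ENSG00000163131, chr1:150730196-150765957 in GRCh38, minus strand), known from antigen-presenting cells, was at 4.11, 4.18 and 3.46 CPM before and 21.0, 20.2 and 21.3 CPM after induction, a ratio of means of 5.32 and a log2 fold change of 2.41 (SE 0.094, adjusted p = 8.39e-10). The 10 leukocyte and macrophage markers went both ways and summed to 1.24 to 2.07 CPM in the non-induced and 2.54 to 3.08 CPM in the induced libraries. Of the 3 tested, CSF1R (0.354 to 0.844 CPM) and ITGAX (0.128 to 0.976 CPM) were called higher. The third was lower (-0.55) and not called. ITGAX, so low without 4OHT, could be tested as a rise but hardly as a fall. AIF1 and ITGAM were at 0 in every induced library, though not in every non-induced one. Any link of these markers to CTSS was not tested. CTSB (ENSG00000164733), the most abundant of the cathepsins here, went from 1224, 1089 and 1023 CPM to 2476, 2496 and 2615 CPM (1.19, SE 0.091, adjusted p = 4.04e-07). CTSL went from 151, 144 and 143 CPM to 274, 289.8 and 297 CPM (0.97, SE 0.065, adjusted p = 1.16e-07). CTSK, a collagen-cutting cathepsin best known from osteoclasts, went from 82.5, 84.97 and 78.5 CPM to 142, 139.7 and 154 CPM (0.83, SE 0.069, adjusted p = 8.00e-07). None of these 4 overlapped between groups, and all 4 kept their calls in all 14 other settings.

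The members of this group that fell were LGMN, legumain, which cuts after asparagine and matures other cathepsins (-0.66, adjusted p = 0.00112), CTSF (-0.52, adjusted p = 0.00678) and CTSD, the main aspartic protease of the lysosome (-0.30, adjusted p = 0.0271). The CTSD call was lost when the non-induced library T or A or the induced library T or A was left out (adjusted p = 0.0680, 0.0713, 0.0869 and 0.0716). CTSC, a dipeptidyl peptidase that activates serine proteases of leukocytes, was at 153, 153 and 151 CPM before and 161, 149 and 159 CPM after induction (0.04, 95% interval -0.082 to 0.16). CTSO was at 11.6, 13.7 and 13.9 CPM before and 12.3, 12.4 and 11.1 CPM after induction (-0.13, 95% interval -0.39 to 0.13). Both overlapped between the groups and so did CTSH (-0.23), whereas CTSZ was higher in every induced library without passing the test (0.13, adjusted p = 0.182). The cystatins, which inhibit these cysteine proteases, were tested for 2 of 5 genes listed: CST3, cystatin C, rose (0.71, adjusted p = 0.000219) and CSTB fell (-0.26, adjusted p = 0.0118).

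**Figure D2:**
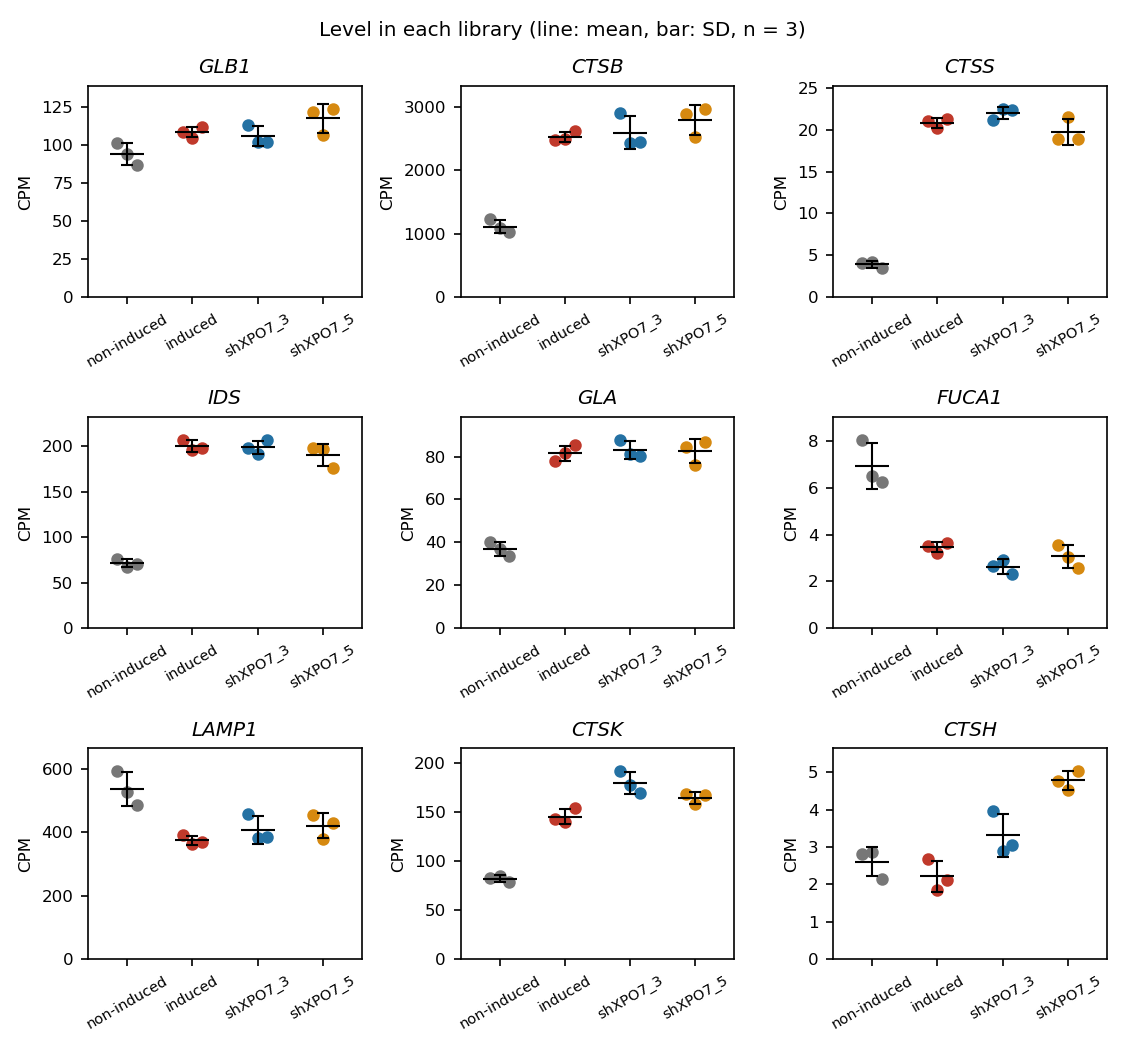
CPM (y axis, from 0) in each library for 9 of the lysosomal genes, by group (x axis), with the mean as a line and the SD as a bar, n = 3. CTSB, CTSS, IDS, GLA and CTSK stand above the non-induced libraries in all 3 groups given 4OHT, FUCA1 and LAMP1 stand below, GLB1 moves little, and CTSH is highest in the 3 shXPO7_5 libraries.

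Compared per kilobase of exon, the order of the genes changed at the top. CTSB went from rank 3 at 267 CPM per kilobase in the non-induced group to rank 1 at 607 in the induced group, past PSAP (334 and 436) and CD63 (390.0 and 387). LAMP1 (199 and 139) and CTSA (143 and 128) came next in both groups, and GLB1 was in the middle of the range (34.4 and 39.6). The lowest levels per kilobase in the induced group were those of FUCA1 (1.69), TFEB (1.07) and CTSH (1.01). Together the 42 genes took 0.713% ± 0.034 of all counts in the non-induced and 0.851% ± 0.021 in the induced libraries (SD, n = 3). Without CTSB those shares were 0.597% and 0.600%, so that nearly the whole net step in this share was CTSB. With shXPO7_3 the 42 genes took 0.858% ± 0.055 and with shXPO7_5 0.897% ± 0.046. These shares are of counts without the trimmed-mean scaling, and in them rises and falls of other genes offset each other. In scaled CPM the 42 genes summed to 7279, 6778 and 6454 in the non-induced libraries. In the induced ones they summed to 8537, 8461 and 8790, where CTSB had means of 1112 and 2529 CPM in the 2 groups.

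The 5 membrane proteins gave 1 rise, 1 fall and 3 genes not called. LAMP1, a heavily glycosylated protein that lines the lysosomal membrane and is widely used to mark it, fell from 595, 527 and 487 CPM to 391.6, 364 and 371 CPM. No induced library came up to the non-induced range, and the log2 fold change was -0.52 (SE 0.097, edgeR adjusted p = 0.000775). Its close relative LAMP2 was not called (-0.091, 95% interval -0.27 to 0.09). MCOLN1, the calcium channel TRPML1, went from 27.6, 26.3 and 24.3 CPM to 32.3, 33.4 and 33.2 CPM, with no overlap (0.34, SE 0.10, adjusted p = 0.0156). The MCOLN1 call was lost without the non-induced library C (adjusted p = 0.0568) and with upper-quartile scaling (0.118), and the gene overlaps PNPLA6 on the same strand, which had 36717 counts against 14441. CD63, a tetraspanin of late endosomes and exosomes, was at 979, 881 and 840.0 CPM before and 865, 889 and 926 CPM after induction (-0.01, 95% interval -0.22 to 0.20). SCARB2, which carries glucocerebrosidase to the lysosome, was at 291, 312 and 337 CPM before and 333, 323 and 319 CPM after induction (0.054, 95% interval -0.16 to 0.27), and both overlapped between the groups.

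**Figure D3:**
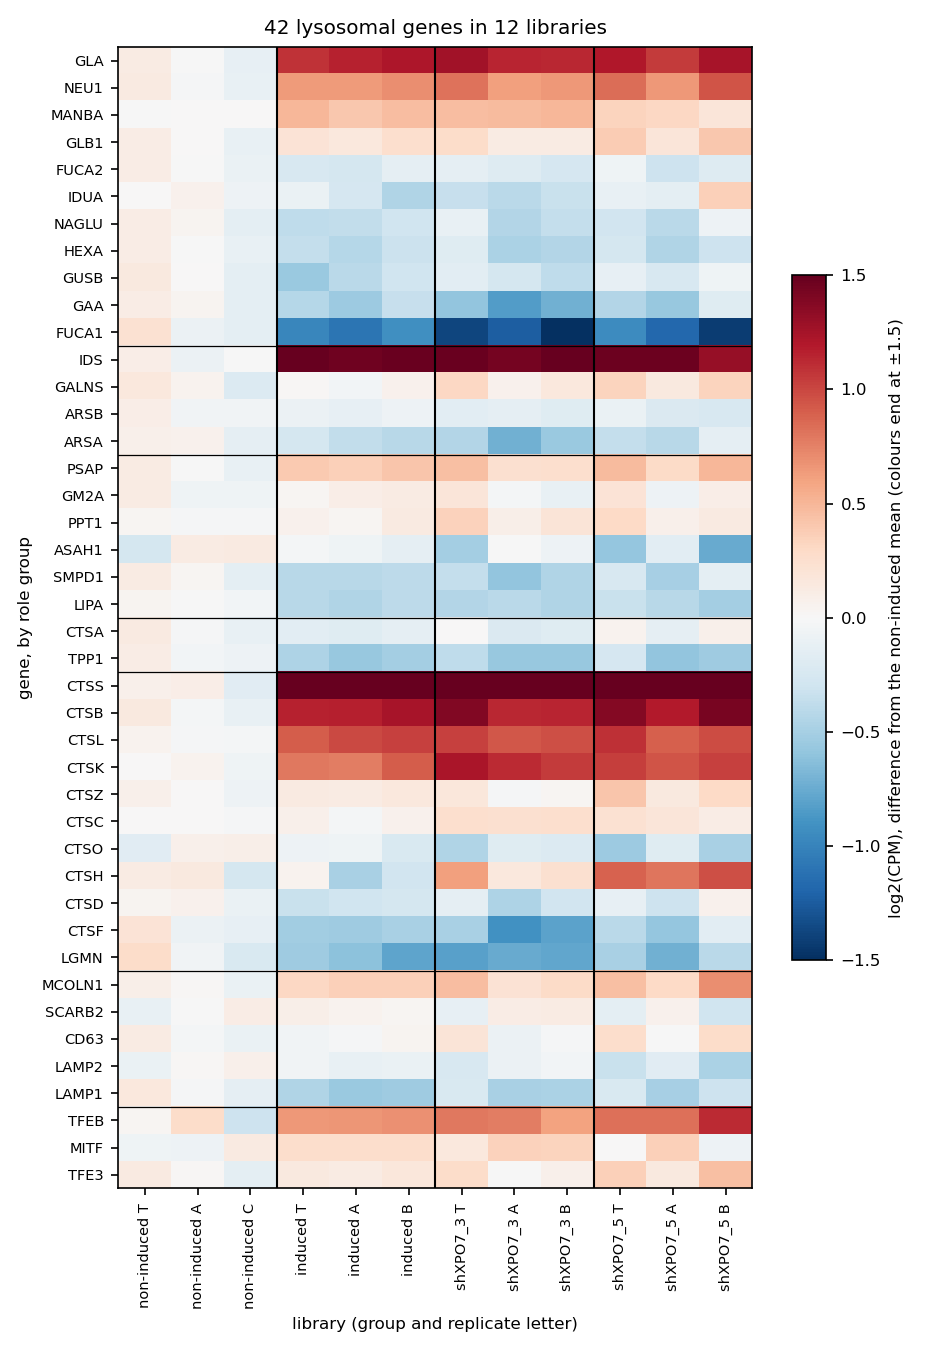
Each of the 42 genes (rows, by role) in each of the 12 libraries (columns), as the difference of log2(CPM) from the non-induced mean, with red above and blue below it and colours ending at ±1.5. IDS, CTSS, CTSB, CTSL, CTSK and GLA are red and FUCA1 and LGMN are blue in all 9 libraries given 4OHT.

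The MiT/TFE factors were low to moderate in level and only TFEB was called. TFEB was at 3.09, 3.67 and 2.44 CPM before and 4.76, 4.78 and 4.86 CPM after induction, higher in all 3 induced libraries, with a log2 fold change of 0.64 (SE 0.14, edgeR adjusted p = 0.00247). MITF was at 10.97, 10.9 and 12.6 CPM before and 13.7, 13.7 and 13.7 CPM after induction, also without overlap, but was not called (0.26, SE 0.11, adjusted p = 0.0794). TFE3, by far the most abundant of them per kilobase (41.0 CPM per kilobase against 1.88 for MITF and 0.686 for TFEB in the non-induced group), was at 153, 141 and 126 CPM before and 154, 152 and 157 CPM after induction, with overlap (0.14, 95% interval -0.074 to 0.36). These factors are controlled mainly by where in the cell they are, which RNA levels do not show.

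Because these factors bind CACGTG, the RefSeq promoter windows of the members (GRCh38.p14, 250 bases before to 50 after the start) were searched for it on both strands. A window was given for 30 of the 42 genes, and 10 of the 30 (33.3%) held CACGTG, against 8.77% of 27305 genes with a window. The longer TCACGTG, of which CACGTG is a part, was in 9 of the 30 (30%) against 4.49%, and GTCACGTG, part of the consensus bound by TFEB, in 7 (23.3%) against 2.93%. The stretches below are from 7 of the 10 genes, written 5′ to 3′ on the gene's strand with CACGTG in capitals: LAMP1 for its run of copies, GAA and CTSD as genes that fell, MCOLN1 and NEU1 as genes that rose, and CTSA and CD63 as genes that were not called. For CTSA only the first of its 2 copies is shown.
LAMP1, chr13:113297035-113297228 (+): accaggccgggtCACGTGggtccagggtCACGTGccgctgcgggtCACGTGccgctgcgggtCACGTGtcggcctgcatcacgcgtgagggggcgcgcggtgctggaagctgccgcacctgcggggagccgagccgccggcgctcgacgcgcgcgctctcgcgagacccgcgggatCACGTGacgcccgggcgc
GAA, chr17:80101493-80101522 (+): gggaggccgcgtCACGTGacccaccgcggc
GAA, chr17:80101538-80101567 (+): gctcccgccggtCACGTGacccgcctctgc
CTSD, chr11:1763957-1763986 (-): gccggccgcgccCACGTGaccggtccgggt
MCOLN1, chr19:7522571-7522623 (+): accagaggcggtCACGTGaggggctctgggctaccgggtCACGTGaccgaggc
NEU1, chr6:31862930-31862959 (-): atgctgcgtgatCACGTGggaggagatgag
CTSA, chr20:45891281-45891310 (+): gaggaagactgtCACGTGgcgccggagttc
CD63, chr12:55729172-55729201 (-): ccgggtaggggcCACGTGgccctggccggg
The LAMP1 stretch of 194 bases holds 5 of the 6 copies in its window, 4 of them close together and preceded by GT. Of the 10 genes with CACGTG in the window 2 rose on induction (NEU1 and MCOLN1), 4 fell (LAMP1, GAA, CTSD and CTSF) and 4 were not called (GALNS, CTSA, ARSB and CD63), with a median log2 fold change of -0.13. Of the 20 genes whose window lacked it 4 rose and 6 fell, with a median of 0.065. The 12 genes without a window, CTSB, CTSS and CTSK among them, gave 5 rises and 4 falls, with a median of -0.089. A match of letters is a description of these windows and not a measured binding site.

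The rest of the lysosomal machinery, from lists of other genes, was not alike either, and the proton pump was the list with the most rises. These lists too were chosen with earlier results of these data known. Of 24 V-ATPase genes 21 could be tested, and 15 rose and none fell (71.4% higher, where 24.8% of all genes were called higher), with a median log2 fold change of 0.43. ATP6V1G1, a subunit of the stalk, was at 81.7, 82.3 and 84.8 CPM before and 168, 161 and 163 CPM after induction (0.98, SE 0.065, edgeR adjusted p = 1.01e-07). ATP6V0A1, a subunit of the membrane sector, was at 58.9, 50.8 and 46.6 CPM before and 100.1, 95.8 and 99.9 CPM after induction (0.92, SE 0.11, adjusted p = 2.04e-05). The largest log2 fold change, 3.99 (SE 0.44), was that of ATP6V0D2, a form of the d subunit best known from osteoclasts and macrophages. ATP6V0D2 rose from a very low level, 0.109 to 1.67 CPM. The filter on low counts let it in on its level with 4OHT, so it could be tested as a rise but hardly as a fall. Where 6 libraries had to reach 1 CPM, 14 of 20 tested V-ATPase genes rose and 0 fell. Of all genes tested under that filter 25.7% were called higher and 28.2% lower. All 15 called subunits had every induced library above every non-induced one, a share not computed over all tested genes. Over 14 other settings 13 to 16 were called higher and 0 to 1 lower. ATP6V0C, the subunit of the proton-carrying ring that every cell needs and named after its values were seen, was listed at only 0.0368 CPM, and was not tested.

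Among 23 of 26 other membrane proteins and transporters that were tested, 8 rose and 5 fell, with NPC1, which moves cholesterol out of the lysosome, going from 23.0 to 97.2 CPM (2.08, edgeR adjusted p = 2.48e-09), LAPTM5 from 0.0889 to 0.416 CPM (2.13) and TMEM192 from 37.6 to 21.4 CPM (-0.81). Of 27 other hydrolases and cofactors 5 rose and 10 fell, among them ARSG, an arylsulfatase (1.25), NAGPA, which uncovers the mannose 6-phosphate tag (-1.22), and EPDR1 (-1.56). Of 27 genes for sorting to lysosomes 5 rose and 8 fell, the largest changes being falls of SORT1, the sorting receptor sortilin (-0.79), AP3S2 (-0.57) and GGA2 (-0.50), both adaptors in vesicle coats. Of 20 genes for mTORC1 at the lysosome and control of MiT/TFE, 1 rose, RRAGD (1.75, 0.245 to 0.805 CPM), and 4 fell. Those that fell included GPNMB, a known target of these factors (-0.76), and RRAGB (-0.44). LAPTM5 and RRAGD, both low without 4OHT, could likewise be tested as rises but hardly as falls. Where 6 libraries had to reach 1 CPM, 0 of 18 tested genes of the mTORC1 list rose and 5 fell. Under that filter 7 of 21 tested other membrane proteins and transporters rose and 5 fell. Of the other hydrolases and cofactors 5 of 24 tested rose and 8 fell under it, and of the sorting genes 5 of 27 rose and 9 fell. In the main fit 24.8% of all tested genes were called higher and 26.1% lower, and under that filter 25.7% and 28.2%. Whether the lists depart from these shares was not tested.

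Both shRNAs lowered their target. XPO7 was at 127, 144 and 139 CPM in the induced libraries, 26.4, 28.7 and 27.9 CPM with shXPO7_3 and 50.8, 54.0 and 51.8 CPM with shXPO7_5 (log2 fold changes -2.30 and -1.39, edgeR adjusted p = 1.24e-08 and 3.27e-06). Both comparisons use the same 3 induced libraries, so their values below are not independent of each other, nor of the induction values above. With shXPO7_3 none of the 42 lysosomal genes was called by edgeR in either direction, where 0.0916% of all tested genes were called higher and 0.0327% lower. At an unadjusted p under 0.05 there were 5 of the 42, where 6.41% of all tested genes passed. DESeq2 called 1, CTSK, where it called 0.466% of all tested genes higher and 0.146% lower. The median log2 fold change was 0.0035 (-0.0031 over all genes), and the 42 values ran from -0.41 for FUCA1 to 0.57 for CTSH. For all 42 genes the 95% interval stayed within 1 log2 unit either side of 0. CTSK was at 192, 178 and 169.6 CPM with shXPO7_3, above the 142, 139.7 and 154 CPM of the induced libraries in each library, but with edgeR the difference of 0.31 (SE 0.068, 95% interval 0.16 to 0.45) had an adjusted p of 0.136. GLB1 differed by -0.034 (95% interval -0.21 to 0.14), and GAA by -0.28 (95% interval -0.52 to -0.035).

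With shXPO7_5 a single lysosomal gene, CTSH, was called higher by edgeR, and by DESeq2, and none lower by either. Of all tested genes edgeR called 0.478% higher and 0.111% lower, and DESeq2 2.87% and 0.768%. CTSH (ENSG00000103811, chr15:78921058-78949574 in GRCh38, minus strand) encodes cathepsin H, a cysteine protease that trims amino acids from the ends of proteins and processes surfactant protein in the lung. It was at 2.81, 2.87 and 2.15 CPM in the non-induced libraries, 2.68, 1.84 and 2.12 CPM in the induced ones, 3.98, 2.90 and 3.07 CPM with shXPO7_3 and 4.78, 4.53 and 5.05 CPM with shXPO7_5. The shXPO7_5 libraries lay above those of all other groups, and the shXPO7_3 ones lay between them and the induced libraries. XPO7 itself was lowered more by shXPO7_3 than by shXPO7_5, so the larger CTSH difference went with the smaller loss of XPO7. Against the induced group the log2 fold change was 1.11 (SE 0.17, 95% interval 0.74 to 1.47, adjusted p = 0.0164) for shXPO7_5 and 0.57 (SE 0.17, 95% interval 0.20 to 0.94, adjusted p = 0.357) for shXPO7_3. The call for shXPO7_5 was lost with only those 2 groups in the fit (adjusted p = 0.0565) and without the induced library T (0.0626), A (0.0832) or B (0.0920) or the shXPO7_5 library T (0.0902) or B (0.0712).

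The other 41 genes had values from -0.40 for ASAH1 to 0.32 for IDUA with shXPO7_5, and 10 of the 42 had an unadjusted p under 0.05, as did 21.6% of all tested genes. GLB1 differed by 0.12 (95% interval -0.06 to 0.29, edgeR adjusted p = 0.350). The genes that had moved most on induction stayed near their induced level: CTSB was at 2902, 2434 and 2454 CPM with shXPO7_3 and 2892, 2533 and 2976 CPM with shXPO7_5. CTSS was at 21.2, 22.6 and 22.4 CPM with shXPO7_3 and at 18.9, 21.5 and 18.9 CPM with shXPO7_5, and its log2 fold changes against the induced group were 0.082 and -0.077. IDS (-0.0096 and -0.076), GLA (0.026 and 0.014) and CTSL (0.0019 and 0.017) differed by less than 0.1 in both. No gene of the V-ATPase, sorting, mTORC1, cystatin or other lysosomal lists was called with either shRNA by edgeR, which had 3 of these 120 tested genes at an unadjusted p under 0.05 with shXPO7_3 (6.41% of all tested genes) and 28 with shXPO7_5 (21.6% of all). DESeq2 called 1 with each, ACP5 with shXPO7_3 and PCYOX1 with shXPO7_5, both named after their values were seen. Its calls over all tested genes were 0.466% higher and 0.146% lower with shXPO7_3, and 2.87% and 0.768% with shXPO7_5.

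GC content moved with the shXPO7_5 values and, among the shXPO7_3 libraries, with those of T. The 42 genes had a median exon GC content of 52.7% against 49.3% over all genes tested, and their median log2 fold change with shXPO7_5 was 0.10 against 0.0058 over all genes. Across the 42 genes the Spearman correlation of GC content with the log2 fold change was 0.70 for shXPO7_5 and -0.078 for shXPO7_3, and across all genes tested it was 0.67 and 0.11. These points share libraries and are a description only. Libraries differed within both groups in this: the ratio of each library to the induced mean had correlations over all genes of 0.59, 0.12 and 0.76 for shXPO7_5 T, A and B and of 0.56, -0.34 and -0.23 for shXPO7_3 T, A and B. The shXPO7_5 libraries T, A and B had median log2 ratios of the 42 genes to the induced mean of 0.139, -0.023 and 0.178, and the shXPO7_3 ones of 0.074, -0.056 and -0.026. Under the GC and length correction the members' median with shXPO7_5 was 0.025. That correction called CTSH and CTSC (0.26, adjusted p = 0.0313) higher and GAA (-0.20, adjusted p = 0.0490) lower, against 0.049 for GAA without it. Of all tested genes the correction called 2.05% higher and 0.759% lower, against 0.478% and 0.111% without it. When library A of shXPO7_5 was left out, 3634 genes were called over the whole table (10.3% higher and 12.7% lower of 15790), and 3 of the 42 were called higher (CTSH, CD63 and GALNS) and 5 lower (ASAH1, CTSO, LAMP2, SCARB2 and MITF). The part of GC content in the shXPO7_5 values was not tested beyond that correction.

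**Figure D4:**
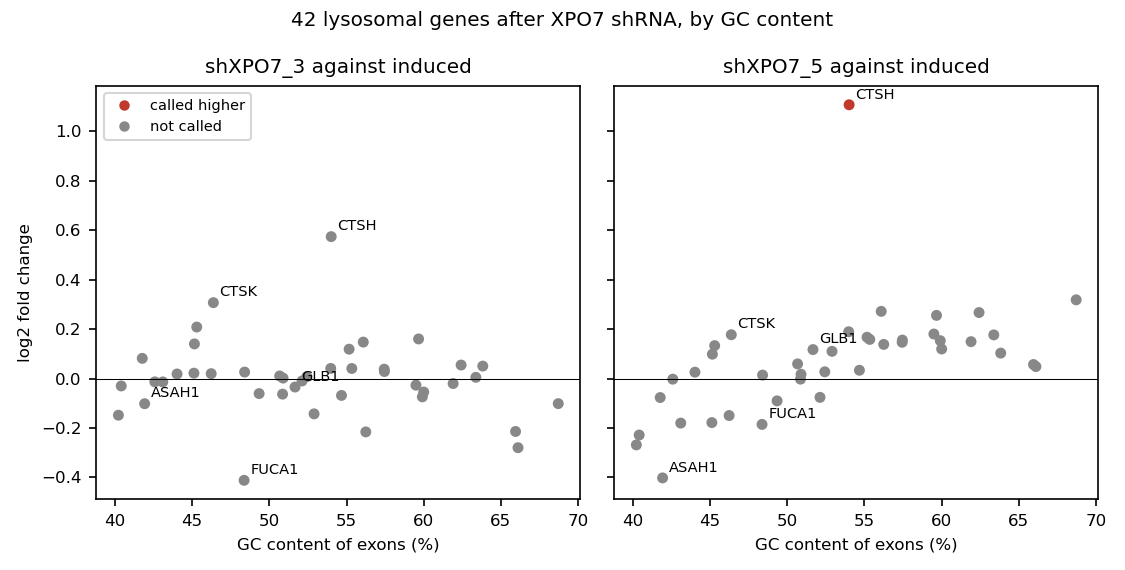
Log2 fold change against the induced libraries (y axis) of the 42 lysosomal genes by the GC content of their exons in percent (x axis), for shXPO7_3 on the left and shXPO7_5 on the right. CTSH at 1.11 is the 1 red, called point, and the shXPO7_5 values climb with GC content whereas the shXPO7_3 values, a mean over libraries that differ in this, do not.

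Compared directly, the shXPO7_5 and shXPO7_3 libraries gave no call by edgeR among the 42 genes, where 0.00654% of all tested genes were called higher and 0.00654% lower, 8 of the 42 having an unadjusted p under 0.05 (11.9% of all tested genes) and DESeq2 calling 0. CTSH differed by 0.53 (SE 0.16, 95% interval 0.18 to 0.89, adjusted p = 0.388), IDUA by 0.42, GAA by 0.33 and MANBA by -0.20. GLB1 differed by 0.15 (95% interval -0.026 to 0.33). Across the 42 genes these differences had a Spearman correlation of 0.80 with GC content.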

How the data were processed

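RNA from 12 libraries was made with a stranded mRNA kit. Per the labels and the study's methods, the authors demultiplexed with CASAVA 1.8.4, aligned to hg19 with TopHat2 2.0.11 and counted with featureCounts 1.18.0, and deposited raw read counts per Ensembl gene; the strand setting was not found (not given in the sources used here) and overlapping genes are uncertain. The 92 spike-in entries were 0 and were left out. Symbols came from RefSeq and GENCODE tables, and exon length, GC content and coordinates from GENCODE on GRCh38, matched by identifier and not by position. The counts were tested with edgeR 4.0.16 (R 4.3.3) over all 12 libraries and 4 groups without covariates, after filterByExpr and TMM scaling, with Benjamini-Hochberg adjustment over 15284 genes. With 3 libraries against 3 an exact permutation test of a single value cannot go below p = 0.1, and none was used. The smooth GC and length correction covered 97.3% of tested genes. Other settings were DESeq2 1.42.0, other scalings and filters, a replicate block, only the groups compared and each library left out in turn. The code was tested on simulated data. No pair of libraries agreed within sampling noise.

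The 42 genes and the other lists were chosen with earlier results of these data known. Library values were given for GLB1, the MiT/TFE factors, CTSH, and in each role group up to 4 called genes with the largest change on induction and up to 2 uncalled ones nearest 0; of each other list up to 3 called genes were named. Sequences came from RefSeq promoters on GRCh38.p14.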

Additional observations from a re-analysis of the deposited data

How the results depend on the processing

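On induction the 42 genes gave 11 calls higher and 14 lower, and over the other scalings, filters, tools and designs 10 to 16 higher and 13 to 15 lower; leaving out each library in turn gave 11 to 12 higher and 11 to 14 lower. A required log2 fold change of at least 1 left 4 higher and 0 lower. No gene called on induction changed direction in any of the 14 settings, and calls were lost only for FUCA2, CTSD, NAGLU and MCOLN1. With shXPO7_3, DESeq2 called 1 gene higher, and the GC and length correction 1 higher (CTSK) and 1 lower (GAA). Over all tested genes DESeq2 called 0.466% higher and 0.146% lower with shXPO7_3, and 2.87% and 0.768% with shXPO7_5. The correction called 1.26% higher and 0.739% lower of all tested genes with shXPO7_3, and 2.05% and 0.759% with shXPO7_5. With shXPO7_5 the fit of only 2 groups called 0 higher, the correction called 2 higher and 1 lower, and leaving out each library in turn gave 0 to 3 higher and 0 to 5 lower, the highest without shXPO7_5 library A; under the correction GAA had a log2 fold change of -0.20. Where no value beside the result shows it, the cause was not tested.

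The replicate letters are shared between groups, except C, which occurs in the non-induced group only and has no partner. The 15 same-letter pairs of libraries had correlations of their deviations from -0.23 to 0.59, with 8 over 0.1. Pairs of unlike letters ran from -0.62 to 0.51, and 6 of 12 libraries correlated best with their own letter. The letters were not taken as pairs in the main fit, and these values do not settle whether they mark pairs. With the replicate block 11 of the 42 genes were called higher and 15 lower on induction, with CTSA and MITF gained and MCOLN1 lost (adjusted p = 0.0728), and CTSH kept its call with shXPO7_5 (adjusted p = 0.0126).

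Levels of a few CPM, as for CTSH, FUCA1 and TFEB, rest on fewer reads and had wider intervals than those of abundant genes, and counts per gene cannot tell transcript forms apart.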
